A study of Mus musculus with 24 samples.

Results

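Expression of Trp53, the gene of the stress-activated transcription factor p53, and of 31 genes known as its targets or partners in growth arrest, repair, apoptosis, metabolism and feedback was followed in lung cells sorted 7 days after irradiation. The 32 genes were chosen by name, with earlier results of these data known. They were matched by gene identifier among the 48795 identifiers of each of 2 deposited tables. All 32 were present in both tables. To be tested a gene needed a level of 10 or more in 4 or more of the 12 libraries per table, which 31 of them reached in each, Ptprv being the exception.

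The mice were female, of the Balb/c strain and 8 weeks old. One group received 13 Gy to the lungs and daily anti-Ly6G, an antibody that removes neutrophils (depleted). A second received the same dose and the control antibody IgG (irradiated). The last was sham-irradiated and given IgG (sham), so all mice received an antibody and no group was depleted without irradiation. From each lung suspension CD45- CD31- Ter119- cells were sorted into an EpCAM+ fraction, the epithelium, and an EpCAM- fraction, called the mesenchyme here. The cell type labels name CD31 in the gate, whereas the protocol text writes CD45 in that place as well. Total RNA depleted of ribosomal RNA was sequenced from 4 libraries per group and fraction, 24 in all, with a design of 4 mice per group. The labels do not say that a number in one fraction is the same mouse in the other.

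The p53 protein is held low in unstressed cells by the ubiquitin ligase Mdm2 and is restrained on DNA by the related protein Mdm4. DNA damage activates kinases that release p53 from both, mainly by stabilising the protein. It then binds response elements made of paired half-sites and raises transcription of genes for cell cycle arrest, repair and apoptosis, as well as of Mdm2 itself, which closes a feedback loop. Ionising radiation is a classical activator of this pathway, in the lung as in other tissues.

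The promoters are shown because the p53 consensus half-site, a palindromic motif of 10 letters, was found in several of them. RefSeq promoters of GRCm38.p6, from 250 bases before to 50 bases after an annotated start, were available for 25 of the 32 genes. The motif was searched with no mismatch, reads alike on both strands, and was present in a promoter of 10 of the 25 genes (40%), against 9.55% of all 27025 genes with a promoter. The 10 genes were Trp53, Mdm2, Polk, Gtse1, Sesn1, Aen, Ei24, Gadd45a, Rps27l and Abhd4. Full elements, meaning a pair of half-sites with a spacer of 0 to 13 bases, were found in 0 of the 37 promoters of these genes and in 0.0731% of all 32851 promoters. A match describes the letters and not a bound site, and other parts of the genes were not searched. The promoters printed belong to 4 genes that rose with irradiation in both fractions, read 5′ to 3′ on the strand of the gene with the half-sites in capitals. They lie at chr10:117710709-117711008 on the minus strand (Mdm2), chr15:85859696-85859995 on the plus strand (Gtse1), chr7:78895808-78896107 on the plus strand (Aen) and chr9:66946163-66946462 on the plus strand (Rps27l).
Mdm2: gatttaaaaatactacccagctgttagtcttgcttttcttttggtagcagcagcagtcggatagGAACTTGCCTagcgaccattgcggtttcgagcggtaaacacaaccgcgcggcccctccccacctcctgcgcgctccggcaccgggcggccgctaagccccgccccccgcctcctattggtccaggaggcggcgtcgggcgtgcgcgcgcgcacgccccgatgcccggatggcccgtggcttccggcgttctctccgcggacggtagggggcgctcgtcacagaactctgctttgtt
Gtse1: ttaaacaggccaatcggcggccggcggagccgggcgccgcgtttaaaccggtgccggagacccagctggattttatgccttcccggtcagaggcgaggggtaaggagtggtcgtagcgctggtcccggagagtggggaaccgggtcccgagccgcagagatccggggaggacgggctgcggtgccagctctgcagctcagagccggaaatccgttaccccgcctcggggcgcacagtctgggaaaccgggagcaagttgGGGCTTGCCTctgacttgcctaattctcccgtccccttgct
Aen: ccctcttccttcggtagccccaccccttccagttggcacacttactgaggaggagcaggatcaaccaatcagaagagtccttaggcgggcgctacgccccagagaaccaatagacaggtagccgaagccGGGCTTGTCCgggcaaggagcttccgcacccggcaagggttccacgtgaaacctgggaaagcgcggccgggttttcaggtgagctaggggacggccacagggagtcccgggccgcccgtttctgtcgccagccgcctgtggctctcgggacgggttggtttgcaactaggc
Rps27l: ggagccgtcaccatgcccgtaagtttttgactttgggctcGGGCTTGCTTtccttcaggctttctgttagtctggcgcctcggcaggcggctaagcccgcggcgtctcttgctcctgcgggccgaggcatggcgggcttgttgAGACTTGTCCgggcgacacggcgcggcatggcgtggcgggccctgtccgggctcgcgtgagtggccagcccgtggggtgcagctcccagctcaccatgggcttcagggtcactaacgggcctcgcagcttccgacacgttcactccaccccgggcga
Counted from the start that the printed promoter belongs to, the motif began at -186 in Mdm2, at 10 in Gtse1 and at -121 in Aen. Rps27l held 2 copies, at -210 and at -107. Gtse1, Aen and Rps27l each have another promoter with a start further upstream. It held no motif in Gtse1 and Rps27l, and in Aen the same motif at 11. Their genes start at 85859745 (Gtse1), 78895854 (Aen) and 66946086 (Rps27l), so these matches lie inside the annotated genes. Which start was used in these cells was not tested. Of the 10 genes with the motif, limma called no change with irradiation in either fraction for Trp53, Sesn1, Gadd45a and Abhd4. DESeq2 called Abhd4 higher in irradiated epithelium (adjusted p = 0.029). Genes whose promoters lacked the motif were called by limma as well. Sulf2, Psrc1, Ddias, Sesn2, Ak1, Apaf1, Dcxr and Zfp365 were called higher in both fractions, and Btg2, Plk2 and Pidd1 in 1 fraction. Mdm4, Plk3, Ercc5 and Tigar, also without it, were called in neither. A link between the motif and the changes was not tested.

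The libraries held 8159062 to 13373329 reads in the epithelial table and 7366672 to 11408083 in the mesenchymal table. The depleted epithelial libraries were shallower, at 8159062 to 9267632 reads, than the irradiated ones, at 10884703 to 13373329 reads. In mesenchyme the irradiated libraries had 7366672 to 8989716 reads, the depleted ones 8960347 to 9932700 and the sham ones 8951233 to 11408083. Levels are normalised counts as the authors deposited them, each being a read count divided by the size factor of its library. A count of 0 allows up to 3 reads, a level of 2.36 to 3.81 in the epithelial and 2.48 to 3.66 in the mesenchymal table, for counting error only. The sorted fractions carried their markers, since the summed level of 11 epithelial markers was 377211 to 464987 in epithelial libraries, and that of 10 mesenchymal markers was 138676 to 235046 in mesenchymal ones. Markers of cells outside the gate had lower sums than these but moved with irradiation. The summed level of the 10 mesenchymal markers in epithelium was 8860 to 10460 in depleted, 7506 to 8427 in irradiated and 6273 to 6950 in sham libraries. Not every such marker was low, since Pdgfra averaged 1343 and Epcam 1151 normalised counts in sham epithelium. In irradiated against sham epithelium, limma called higher 4 of 12 leukocyte markers tested, 4 of 8 neutrophil, 4 of 10 endothelial, 2 of 10 mesenchymal, 1 of 4 erythroid and 0 of 11 epithelial markers. In mesenchyme the counts were 3 of 12, 4 of 8, 0 of 10, 0 of 10, 0 of 5 and 1 of 9, in the same order. All 12 leukocyte, 8 neutrophil and 9 epithelial markers tested there had a log2 change above 0, with medians of 1.25, 1.90 and 0.79. Of these edgeR called 4, 3 and 1 higher and DESeq2 5, 7 and 3. Of the 10 mesenchymal markers 4 had a change above 0. The endothelial markers that limma did not call in mesenchyme were higher there too, all 10 having a log2 change above 0 with a median of 1.13, and edgeR called 3 and DESeq2 7 of them. Their summed level in mesenchyme was 2022 to 3692 in depleted, 2781 to 4723 in irradiated and 1197 to 2846 in sham libraries. The summed leukocyte level in epithelium was 2357 to 3292 in depleted, 3104 to 4061 in irradiated and 2888 to 3255 in sham libraries. In mesenchyme it was 934 to 2061 in depleted, 1233 to 2775 in irradiated and 417 to 1194 in sham libraries. The part of these cells in the results was not tested, and in sorted bulk RNA fewer cells of a type and less RNA per cell cannot be told apart.

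Irradiation raised most of the p53 targets in both fractions. In irradiated against sham epithelium 18 of the 31 tested genes were called higher (limma, Benjamini-Hochberg adjusted p under 0.05 over all 16626 genes) and none lower, where 2.26% of all genes were called higher and 0.878% lower. In mesenchyme 17 of 31 were called higher and none lower, against 2.64% and 1.15% of all 16624 genes. As the set was chosen with earlier results of these data known, the shares describe it and do not test it. edgeR and DESeq2 also called none lower, and of the genes with an unadjusted limma p under 0.05, 23 in epithelium and 19 in mesenchyme, each was higher, where 14.3% and 21% of all genes passed. The median log2 change was 0.59 in epithelium and 0.51 in mesenchyme, with -0.01 over all genes in each table. Called in both fractions were 16 genes: Mdm2, Polk, Gtse1, Sulf2, Psrc1, Ddias, Sesn2, Zmat3, Trp53inp1, Aen, Ei24, Ak1, Rps27l, Apaf1, Dcxr and Zfp365. Btg2 and Plk2 passed the threshold in epithelium alone and Pidd1 in mesenchyme alone, while 12 genes passed in neither by limma. edgeR gave the same calls, and DESeq2 added Abhd4 in epithelium. The 4 irradiated libraries all lay above the 4 sham libraries for 22 of the 31 genes in epithelium and 19 in mesenchyme, as for 4.94% and 6.26% of all genes, and all below for 0 and 1 (Rrm2b), as for 3.89% and 5.55% of all genes.

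**Figure D1:**
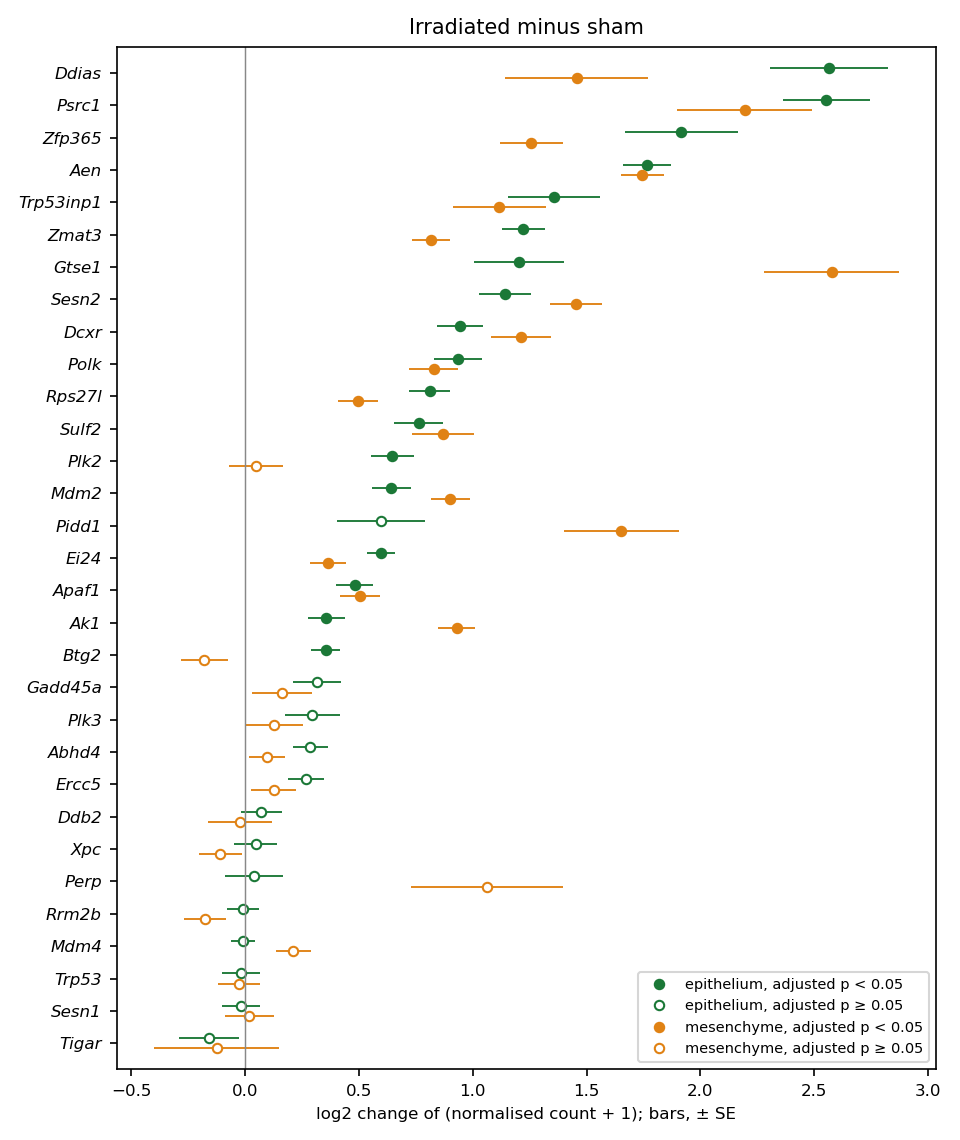
log2 change of (normalised count + 1) in irradiated minus sham libraries for the 31 tested genes, epithelium in green and mesenchyme in orange, with bars of ± SE from limma and n = 4 per group. Filled points have an adjusted p under 0.05. Farthest to the right lie Ddias, Psrc1, Zfp365 and Aen in epithelium, and Gtse1, Psrc1 and Aen in mesenchyme. Trp53, Sesn1 and Rrm2b lie near 0 in both.

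Trp53 itself did not pass the test (chromosome 11, 69580359 to 69591873, plus strand, GRCm38). Its epithelial levels were 248, 281, 214 and 254 normalised counts in depleted, 243, 238, 247 and 261 in irradiated and 257, 254, 238 and 254 in sham libraries. In mesenchyme they were 337, 406, 328 and 365 in depleted, 356, 328, 387 and 309 in irradiated and 346, 330.2, 333 and 393 in sham libraries. The groups overlapped in both fractions. The irradiated minus sham log2 change was -0.02 ± 0.083 in epithelium (adjusted p = 0.957) with a 95% interval of -0.19 to 0.16, and -0.03 ± 0.092 in mesenchyme (adjusted p = 0.907) with an interval of -0.22 to 0.17. The annotation holds pseudogenes of Trp53 and of Mdm4, and how reads were divided between gene and copy is not given in the sources used here.

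Mdm2, the ligase that marks p53 for degradation, rose in both fractions (chromosome 10, 117688875 to 117710758, minus strand). Epithelial levels were 881, 897, 915 and 1127 in depleted, 755, 949, 784 and 906 in irradiated and 510.3, 557, 539 and 557 in sham libraries. Mesenchymal levels were 880.3, 863, 875 and 1012 in depleted, 796, 1042, 812 and 966 in irradiated and 495, 488, 475 and 464 in sham libraries. Every irradiated and depleted library lay above every sham library. Against sham, irradiation gave a log2 change of 0.64 ± 0.084 in epithelium (adjusted p = 0.000209) and 0.90 ± 0.086 in mesenchyme (adjusted p = 2.2e-05), or 1.56-fold and 1.87-fold.

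Mdm4, the other p53 inhibitor of the family, had a sham mean per kilobase of exon of 129 against 106 for Mdm2 in epithelium and of 101 against 94.6 in mesenchyme. These means divide by all annotated exon bases, 14798 for Mdm4 and 5083 for Mdm2, not by the transcripts expressed. Which gene was more abundant was not tested. Its epithelial levels were 1877, 1982, 2052 and 2065 in depleted, 1859, 1963, 1798 and 1984 in irradiated and 1813, 1894, 1900.5 and 2051 in sham libraries. The mesenchymal levels were 1496, 1572, 1743 and 1765 in depleted, 1584, 1892, 1589 and 1851 in irradiated and 1512, 1502, 1510.3 and 1428 in sham libraries. The epithelial groups overlapped, with a log2 change of -0.01 ± 0.054 (adjusted p = 0.966). In mesenchyme the 4 irradiated libraries lay above the 4 sham libraries, but the change of 0.21 ± 0.078 did not pass the test (adjusted p = 0.131).

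Trp53inp1, whose nuclear protein supports p53 activity under stress and takes part in autophagy, showed large and variable levels. In epithelium it had 2248, 1988, 2186 and 3142 normalised counts in depleted, 1709, 2037, 1338 and 1917 in irradiated and 554, 554, 810.0 and 831 in sham libraries. In mesenchyme it had 1917, 1583, 1454 and 2659.8 in depleted, 1093, 1714, 1119.8 and 1712 in irradiated and 687, 541, 680.4 and 640.3 in sham libraries. No irradiated library overlapped with sham, and the highest value of each fraction was a depleted library. Irradiation changed it from sham by 1.36 ± 0.20 on the log2 scale in epithelium (adjusted p = 0.00613) and 1.12 ± 0.21 in mesenchyme (adjusted p = 0.0155). Without irradiated replicate 2 the mesenchymal change had an adjusted p of 0.0558.

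Among the genes of the cell cycle and cytoskeleton, Gtse1 and Psrc1 rose strongly from low levels. Gtse1 encodes a microtubule-associated protein that moves p53 out of the nucleus (chromosome 15, 85859745 to 85876573, plus strand). Its epithelial levels were 43.8, 50.8, 41.8 and 43.1 in depleted, 31.3, 51.2, 42.9 and 45.02 in irradiated and 17.6, 22.3, 16.97 and 14.6 in sham libraries. In mesenchyme they were 31.8, 29.7, 28.99 and 38.3 in depleted, 33.01, 39.8, 24.4 and 29.3 in irradiated and 6.09, 7.45, 3.03 and 2.49 in sham libraries, where the sham values rest on 3 to 9 reads. The irradiated and sham groups were apart in both fractions. The irradiated minus sham log2 change was 1.20 ± 0.20 in epithelium (adjusted p = 0.00194) and 2.58 ± 0.30 in mesenchyme (adjusted p = 0.000119).

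Psrc1 encodes a protein of the mitotic spindle that binds microtubules (chromosome 3, 108383839 to 108388231, plus strand). It had 151, 147, 159 and 232 normalised counts in depleted, 125, 188, 125 and 153 in irradiated and 29.3, 30.8, 19.6 and 18.7 in sham epithelium. In mesenchyme its levels were 57.4, 56.7, 59.9 and 65.5 in depleted, 57.8, 58.04, 51.9 and 68.3 in irradiated and 5.07, 12.4, 14.1 and 22.5 in sham libraries. All irradiated and depleted libraries exceeded all sham libraries. With irradiation the log2 change from sham was 2.55 ± 0.19 in epithelium (adjusted p = 2.39e-07), or 5.87-fold, and 2.20 ± 0.30 in mesenchyme (adjusted p = 0.000676), or 4.58-fold.

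Both genes also serve dividing cells, so the 20 proliferation genes (Mki67, Top2a, Cdk1 and others) are given beside them. None of the 16 tested in epithelium and none of the 13 tested in mesenchyme was called with irradiation by limma, edgeR or DESeq2. At an unadjusted limma p under 0.05 there were 5 and 2, where 14.3% and 21% of all genes passed. Their median irradiated minus sham log2 change was -0.60 in epithelium, where 0 of 16 lay above 0, and 0.24 in mesenchyme, where 10 of 13 did. Their summed level in epithelium was 394 to 629 in depleted, 484 to 1060 in irradiated and 784 to 1050 in sham libraries. In mesenchyme it was 369.9 to 464 in depleted, 322 to 458 in irradiated and 271 to 354 in sham libraries. In depleted against sham libraries limma called 3 of the 16 lower in epithelium (Cenpf, Bub1 and Ccna2) and 2 of the 13 higher in mesenchyme (Top2a and Mki67). The part of dividing cells in the Gtse1 and Psrc1 values was not tested.

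Btg2, an antiproliferative gene that is also an early response gene, had the highest sham level per kilobase of exon of the 32 genes in both tables, 2361 in epithelium and 7606 in mesenchyme (chromosome 1, 134075170 to 134079120, minus strand). In epithelium it had 8903, 8054, 7919 and 9495 normalised counts in depleted, 7673, 8814, 7784 and 8915 in irradiated and 6502, 6483, 6507 and 6409 in sham libraries. In mesenchyme it had 18081, 16684, 19412 and 19012 in depleted, 15114, 17773, 20002 and 21386 in irradiated and 20708, 19869.8, 20948 and 21924 in sham libraries. Irradiated epithelial libraries all lay above sham, and the log2 change was 0.35 ± 0.063 (adjusted p = 0.00381). In mesenchyme irradiated and sham libraries overlapped and the change was -0.18 ± 0.10 (adjusted p = 0.34), while the 4 depleted libraries lay below the 4 sham libraries.

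Plk2 and Plk3, polo-like kinases of the stress response, behaved less uniformly. Plk2 averaged 1072 ± 69.1 normalised counts in depleted, 1378 ± 239 in irradiated and 871 ± 39.6 in sham epithelium (SD, n = 4 each), with an irradiated minus sham log2 change of 0.65 ± 0.095 (adjusted p = 0.00119). In mesenchyme its change was 0.05 ± 0.12 (adjusted p = 0.867) and the groups overlapped. Plk3 changed by 0.30 ± 0.12 in epithelium (adjusted p = 0.254) and 0.13 ± 0.13 in mesenchyme (adjusted p = 0.602), with overlapping groups in both. An exon of Tctex1d4 overlaps Plk3 on the opposite strand, and whether counting used strand is not given in the sources used here. Of 11 immediate early genes, which like Btg2, Plk2 and Plk3 can respond to tissue handling, limma and edgeR called Fos and Fosb lower in irradiated epithelium. Their limma log2 changes were -0.33 ± 0.061 and -0.44 ± 0.066. DESeq2 added Nr4a1 and Egr1, also lower. In epithelium 6 of the 11 had an unadjusted limma p under 0.05, where 14.3% of all genes passed, and 5 of the 11 changes lay above 0. In mesenchyme limma and edgeR called none and DESeq2 called Ier3 higher. There 2 had an unadjusted limma p under 0.05, where 21% of all genes passed. The summed level of the 11 genes in epithelium was 93205 to 106684 in depleted, 90301 to 109264 in irradiated and 101309 to 110835 in sham libraries. Its part in the values of Btg2, Plk2 and Plk3 was not tested.

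**Figure D2:**
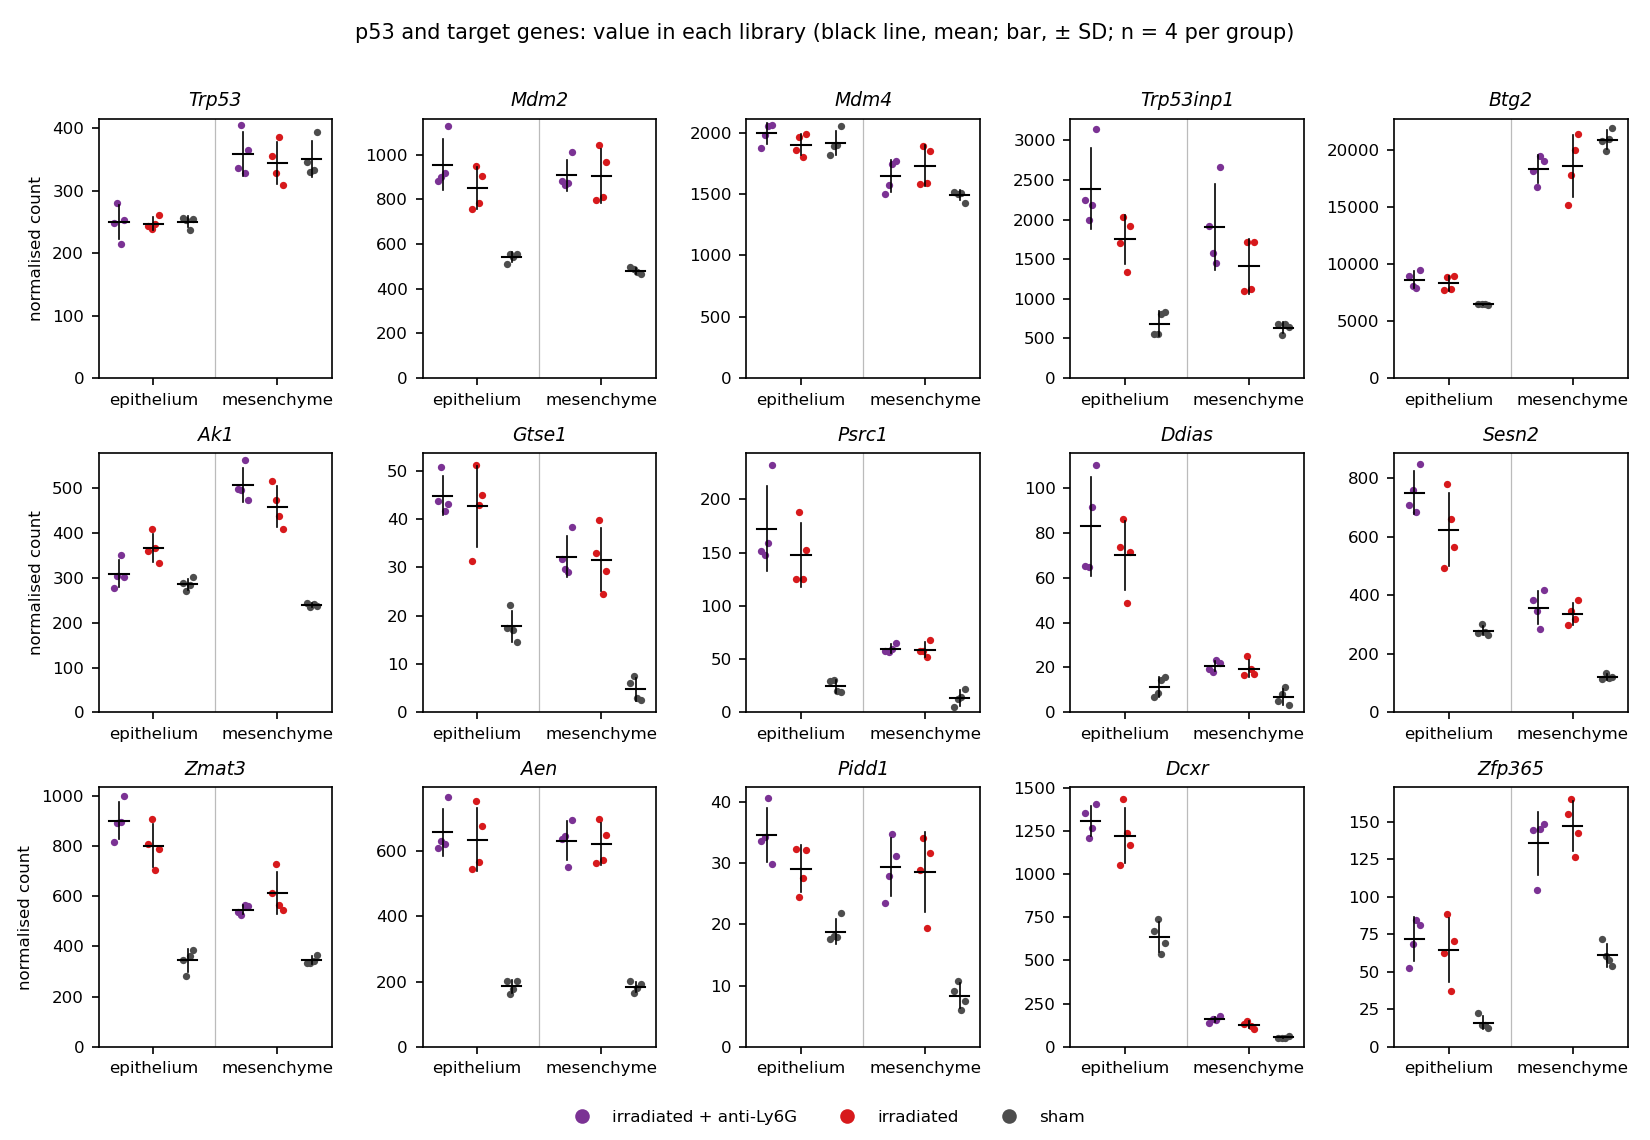
Normalised counts in each library for 15 genes, with depleted (purple), irradiated (red) and sham (grey) points from left to right in each fraction, a black line for the mean and a bar for ± SD (n = 4 per group). In both fractions Mdm2, Aen, Sesn2 and Zmat3 show depleted and irradiated points together above the sham points, and Trp53 shows 3 overlapping groups.

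In the group of apoptosis genes, Aen, an exonuclease that takes part in DNA fragmentation, gave the lowest adjusted p of the 31 tested genes in each fraction (chromosome 7, 78895854 to 78911209, plus strand). Epithelial levels were 612, 633, 623 and 766 in depleted, 546, 754, 567 and 678 in irradiated and 201, 162, 178 and 201 in sham libraries. Mesenchymal levels were 636, 647, 551 and 697 in depleted, 564, 699, 574 and 651 in irradiated and 201, 165, 179.7 and 192 in sham libraries. The lowest irradiated library had more than double the highest sham library in each fraction. The log2 change was 1.77 ± 0.11 in epithelium (adjusted p = 4.39e-08) and 1.75 ± 0.093 in mesenchyme (adjusted p = 2.92e-08), or 3.40-fold and 3.35-fold.

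Ddias, a damage-induced suppressor of apoptosis known mainly from human cells, had the largest epithelial change (chromosome 7, 92857525 to 92874247, minus strand). It had 65.1, 64.8, 91.4 and 110.1 normalised counts in depleted, 73.4, 85.9, 48.5 and 71.5 in irradiated and 6.83, 8.49, 14.3 and 15.6 in sham epithelium. In mesenchyme the levels were 19.5, 17.995, 23.2 and 22.2 in depleted, 16.5, 25.04, 19.3 and 17.1 in irradiated and 5.07, 8.27, 11.1 and 3.33 in sham libraries, the sham values resting on 4 to 11 reads. Irradiated and sham libraries did not overlap. The change was 2.57 ± 0.26 in epithelium (adjusted p = 1.05e-05) and 1.46 ± 0.31 in mesenchyme (adjusted p = 0.0202). The mesenchymal call was lost without sham replicate 1 or irradiated replicate 2, with an adjusted p of up to 0.083.

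Pidd1, the scaffold on which caspase-2 is activated, was low in both fractions. Its epithelial levels were 33.7, 34.3, 40.6 and 29.9 in depleted, 32.3, 24.4, 27.5 and 32.2 in irradiated and 17.6, 18.04, 17.9 and 21.9 in sham libraries. In mesenchyme they were 23.6, 27.9, 34.8 and 31.2 in depleted, 28.9, 34.1, 19.3 and 31.7 in irradiated and 9.13, 10.8, 6.06 and 7.48 in sham libraries. Irradiated and sham libraries were apart in both fractions, yet only the mesenchymal change of 1.65 ± 0.25 passed the test (adjusted p = 0.00179), the epithelial change being 0.60 ± 0.19 (adjusted p = 0.11). Whether the fractions differed was tested on its own and is given with the comparison of fractions.

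Zmat3, a zinc finger protein that binds RNA and is known for tumour suppression downstream of p53, rose in both fractions. Epithelial levels were 818, 892, 897 and 998 in depleted, 810.4, 908, 703 and 787 in irradiated and 345, 283, 362 and 387 in sham libraries. Mesenchymal levels were 536, 527, 564 and 559 in depleted, 613, 729.5, 566 and 544 in irradiated and 335, 335, 343 and 368 in sham libraries. There was no overlap with sham, and the changes were 1.22 ± 0.094 in epithelium (adjusted p = 5.12e-07) and 0.82 ± 0.083 in mesenchyme (adjusted p = 3.82e-05).

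Apaf1, the core of the apoptosome, and Ei24, a membrane protein of the endoplasmic reticulum needed in autophagy, rose by smaller amounts. Apaf1 averaged 393 ± 39.4 normalised counts in depleted, 370.2 ± 24.5 in irradiated and 265 ± 18.3 in sham epithelium (SD, n = 4 each), and its irradiated minus sham change was 0.48 ± 0.082 in epithelium (adjusted p = 0.00275) and 0.51 ± 0.087 in mesenchyme (adjusted p = 0.00493). Ei24 changed by 0.59 ± 0.062 in epithelium (adjusted p = 1.42e-05) and 0.36 ± 0.080 in mesenchyme (adjusted p = 0.0228). The mesenchymal call of Ei24 was lost without sham replicate 3, irradiated replicate 1 or irradiated replicate 2, with an adjusted p of up to 0.091. A transcript annotated as antisense overlaps the exons of Ei24.

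Perp, a p53 target that is a component of desmosomes in epithelia, was not called with irradiation. It averaged 290 ± 56.4 normalised counts in depleted, 237 ± 17.7 in irradiated and 232 ± 38.1 in sham epithelium (SD, n = 4 each). In mesenchyme it had 53.3, 47.7, 51.2 and 83.7 in depleted, 35.1, 64.9, 34.6 and 42.7 in irradiated and 33.5, 30.6, 14.1 and 10.8 in sham libraries. The irradiated minus sham change was 0.04 ± 0.13 in epithelium (adjusted p = 0.938) and 1.06 ± 0.33 in mesenchyme (adjusted p = 0.086). The summed level of 11 epithelial markers in the mesenchymal libraries moved the same way, at 4004 to 6756 in depleted, 3880 to 7257 in irradiated and 2311 to 4217 in sham libraries, with no marker of the list at 0 in all libraries of a group. The part of epithelial RNA in the mesenchymal Perp values was not tested.

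Repair genes split. Polk, the translesion DNA polymerase kappa, rose, averaging 347 ± 41.5 normalised counts in depleted, 306 ± 46.4 in irradiated and 158 ± 8.18 in sham epithelium (SD, n = 4 each). Its irradiated minus sham change was 0.94 ± 0.11 in epithelium (adjusted p = 3.7e-05) and 0.83 ± 0.11 in mesenchyme (adjusted p = 0.000534). The other repair genes of the set were not called. Those were Ercc5, Xpc and Ddb2, which act in nucleotide excision repair, Rrm2b, the p53-inducible subunit of ribonucleotide reductase, and Gadd45a, a stress sensor tied to repair and checkpoint control. A p53 response of Ddb2 is known from human cells and is weak or absent in mouse cells.

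Xpc changed by 0.05 ± 0.093 in epithelium and -0.11 ± 0.095 in mesenchyme, with 95% intervals of -0.15 to 0.24 and -0.31 to 0.09. Ddb2 changed by 0.07 ± 0.092 and -0.02 ± 0.14, with intervals of -0.12 to 0.26 and -0.32 to 0.28. Rrm2b changed by -0.01 ± 0.069 in epithelium, with an interval of -0.16 to 0.14. All of these intervals lie well inside a doubling or a halving. In mesenchyme the 4 irradiated Rrm2b libraries, 233 to 271 normalised counts, lay below the 4 sham libraries, 277 to 312, with a change of -0.18 ± 0.093 (adjusted p = 0.299). Ercc5 and Gadd45a were higher in every irradiated than in every sham epithelial library but did not pass, at 0.27 ± 0.081 (adjusted p = 0.086) and 0.31 ± 0.11 (adjusted p = 0.125). Acp2 overlaps exons of Ddb2, and other transcripts overlap Rrm2b and Gadd45a, on the opposite strand.

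The 2 sestrins, stress proteins that restrain the growth kinase complex mTORC1, parted. Sesn2 had 708, 760.1, 684 and 848 normalised counts in depleted, 491, 781, 659 and 563 in irradiated and 271, 301, 276 and 265 in sham epithelium. In mesenchyme its levels were 385, 345, 284 and 417 in depleted, 297, 345, 320.4 and 383 in irradiated and 116, 136, 116 and 119.7 in sham libraries. All depleted and irradiated libraries exceeded all sham libraries, and the irradiated minus sham change was 1.14 ± 0.11 in epithelium (adjusted p = 3.61e-05) and 1.45 ± 0.11 in mesenchyme (adjusted p = 4.05e-06). Sesn1, the family member first described as a p53 target, averaged 231 ± 11.1 in depleted, 213 ± 12.7 in irradiated and 216 ± 19.3 in sham epithelium (SD, n = 4 each). Its irradiated minus sham change was -0.02 ± 0.084 in epithelium (adjusted p = 0.957) and 0.02 ± 0.11 in mesenchyme (adjusted p = 0.952). Sesn3, which is not counted among the 32, changed by -0.43 ± 0.11 in epithelium (adjusted p = 0.0587) and by 0.10 ± 0.12 in mesenchyme (adjusted p = 0.678).

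Of the metabolic genes, Dcxr, a reductase of dicarbonyls and xylulose, rose in both fractions. Epithelial levels were 1353, 1209, 1267 and 1405 in depleted, 1052, 1432, 1239.6 and 1168 in irradiated and 668, 739.6, 538 and 598 in sham libraries. Mesenchymal levels were 138, 160.2, 158 and 177 in depleted, 132, 151, 120.0 and 105 in irradiated and 49.7, 51.3, 52.5 and 62.4 in sham libraries. Irradiated and sham libraries were apart, with changes of 0.94 ± 0.10 in epithelium (adjusted p = 6.52e-05) and 1.21 ± 0.13 in mesenchyme (adjusted p = 7.52e-05).

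Ak1, the adenylate kinase that balances adenine nucleotides, rose more in mesenchyme than in epithelium (chromosome 2, 32621758 to 32635058, plus strand). It had 278, 304, 349.8 and 303 normalised counts in depleted, 359, 408, 367 and 334 in irradiated and 288, 272, 283 and 301 in sham epithelium. In mesenchyme it had 497, 496, 561 and 474 in depleted, 515, 472, 437 and 409 in irradiated and 243, 235, 242 and 237 in sham libraries. The irradiated libraries exceeded sham in both fractions, whereas the depleted epithelial libraries overlapped with both other groups. The irradiated minus sham change was 0.36 ± 0.081 in epithelium (adjusted p = 0.0212) and 0.93 ± 0.080 in mesenchyme (adjusted p = 9e-06). The epithelial call was lost without sham replicate 2, sham replicate 3 or irradiated replicate 2, with an adjusted p of up to 0.106.

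Zfp365, the mouse counterpart of human ZNF365, which helps to keep the genome stable, rose from a low level. Its epithelial levels were 52.7, 68.6, 84.6 and 81.4 in depleted, 62.6, 88.2, 37.2 and 70.7 in irradiated and 22.4, 14.9, 14.3 and 12.5 in sham libraries. In mesenchyme they were 144, 104, 145 and 148 in depleted, 155, 165, 126 and 143 in irradiated and 72.01, 60.4, 57.5 and 54.1 in sham libraries. Sham and irradiated libraries were apart, and the changes were 1.92 ± 0.25 in epithelium (adjusted p = 0.00018) and 1.26 ± 0.14 in mesenchyme (adjusted p = 8.77e-05).

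Sulf2, which trims sulphate groups from heparan sulphate outside the cell, changed by 0.76 ± 0.11 in epithelium (adjusted p = 0.000405) and 0.87 ± 0.14 in mesenchyme (adjusted p = 0.00373). Its exons overlap Ncoa3 on the opposite strand. Rps27l, a paralog of the ribosomal protein gene Rps27, changed by 0.81 ± 0.090 in epithelium (adjusted p = 3.21e-05) and 0.50 ± 0.088 in mesenchyme (adjusted p = 0.00571). Reads shared with Rps27 and its copies make its level uncertain, and Rps27 was not called in either fraction.

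Tigar, a fructose bisphosphatase known from human cells for lowering glycolysis, was not called, at -0.16 ± 0.13 in epithelium (adjusted p = 0.657) and -0.13 ± 0.28 in mesenchyme (adjusted p = 0.841). Abhd4, a lipid hydrolase, had a change of 0.29 ± 0.078 in epithelium, where the irradiated libraries all lay above sham and DESeq2 alone called it (limma adjusted p = 0.0541; DESeq2 adjusted p = 0.029), and of 0.09 ± 0.078 in mesenchyme (adjusted p = 0.531). Ptprv, a receptor-type phosphatase induced by p53 in mouse cells, had at most 3 reads in any epithelial library and 0 in all 4 sham ones. In mesenchyme it had 6, 7, 6 and 2 reads in depleted, 9, 5, 5 and 4 in irradiated and 0, 4, 0 and 1 in sham libraries. With no filter on low values limma called it in mesenchyme, irradiated against sham (adjusted p = 0.0402), which is close to the limit of what these depths can show. A transcript annotated as antisense overlaps its exons.

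The sizes of change were related between fractions. Across the 31 genes the irradiated minus sham log2 changes in epithelium and mesenchyme had a Pearson r of 0.763 and a Spearman rho of 0.786, as a description across genes, which are not independent replicates. In mesenchyme genes with a low sham mean in normalised counts, not divided by length, tended to show the larger changes. By rank this was weak in epithelium. The Spearman rho between sham level and change was -0.26 in epithelium and -0.55 in mesenchyme. On log2 sham levels the Pearson r was -0.52 and -0.67. Sham level and change share the sham libraries, and the pseudocount of 1 bears on the lowest genes.

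The difference in response between fractions was tested in a fit of all 24 libraries over 15092 genes. Both fractions were sorted from lungs of a design of 4 mice per group, so libraries of the 2 fractions may share mice, which this fit treats as independent. Of the 31 genes, 1 rose more in epithelium and 1 more in mesenchyme, where 0.199% and 0.431% of all genes did. Btg2 had an epithelium minus mesenchyme difference of 0.53 ± 0.12 (adjusted p = 0.0358), and this call was lost on leaving out epithelial sham replicate 1, 2, 3 or 4, epithelial irradiated replicate 2 or 4, mesenchymal sham replicate 3 or 4, or mesenchymal irradiated replicate 1 or 2, with an adjusted p of up to 0.0874. Ak1 had a difference of -0.57 ± 0.11 (adjusted p = 0.0122), which was called with each library left out in turn. Gtse1, whose difference was -1.37 ± 0.35 (adjusted p = 0.0638), Plk2, at 0.60 ± 0.16 (adjusted p = 0.0835), and Pidd1, at -1.06 ± 0.29 (adjusted p = 0.087), missed the threshold. If same-numbered libraries were from 1 mouse, which the labels do not say, a fit with that block would add Gtse1 (adjusted p = 0.0352) and Zmat3, at 0.40 ± 0.096 (adjusted p = 0.0444). edgeR also called Gtse1, and DESeq2 called Plk2. Ddias, at 1.11 ± 0.41 (adjusted p = 0.215), and Perp, at -1.02 ± 0.39 (adjusted p = 0.226), also missed it. In all, 12 of the 31 had an unadjusted p under 0.05, where 13.3% of all genes did. Aen was close to equal, with a difference of 0.02 and a 95% interval of -0.29 to 0.33.

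**Figure D3:**
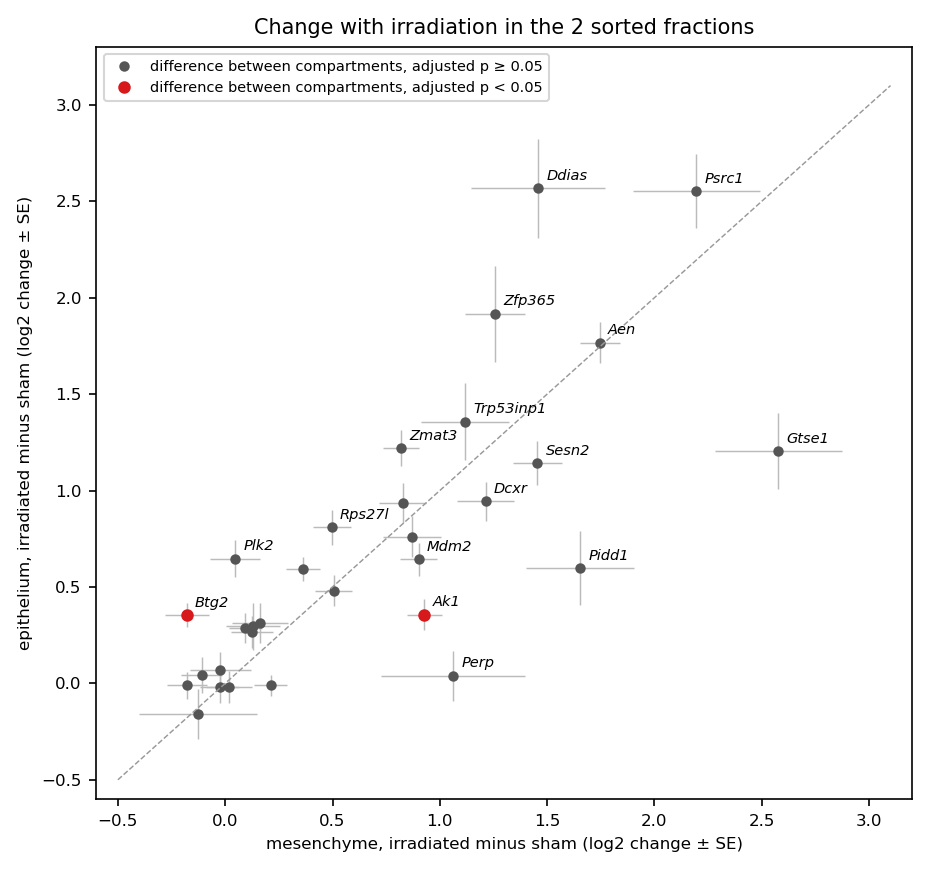
log2 change with irradiation (irradiated minus sham) in epithelium, vertical axis, against mesenchyme, horizontal axis, for the 31 tested genes, with bars of ± SE and a dashed line of equality. Red points, Btg2 above the line and Ak1 below it, differed between fractions at an adjusted p under 0.05; Aen lies on the line.

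No change of these genes with neutrophil depletion passed the main test. In depleted against irradiated libraries limma called 0 of 31 genes in each fraction, where 0.204% of all genes were called higher and 0.271% lower in epithelium, and 2.02% higher and 0.674% lower in mesenchyme. edgeR also called none, and DESeq2 called 1, Plk2, lower in epithelium and none in mesenchyme. At an unadjusted p under 0.05 there were 8 genes in epithelium and 4 in mesenchyme, where 12.4% and 17.9% of all genes passed. The depleted and irradiated libraries overlapped for all 31 genes in both fractions, whereas 3.24% of all genes in epithelium and 6.09% in mesenchyme lay higher without overlap and 3.18% and 3.93% lower. The median log2 change was 0.12 in epithelium and 0.06 in mesenchyme, with 0.00 over all genes, and 24 and 21 of the 31 values lay above 0. The 95% interval lay within a change of 2-fold either way for 31 of 31 genes in epithelium and 29 of 31 in mesenchyme, the exceptions being Perp and Tigar.

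Neutrophil markers in the sorted cells did not move one way between depleted and irradiated libraries. Their summed level in epithelium was 1005 to 2499 in depleted, 316 to 1258 in irradiated and 316 to 2203 in sham libraries. In mesenchyme it was 296 to 724 in depleted, 355 to 769 in irradiated and 105 to 274 in sham libraries. S100a8, a calcium-binding protein abundant in neutrophils, averaged 73.5 ± 46.7 normalised counts in depleted, 40.2 ± 26.1 in irradiated and 2.67 ± 2.11 in sham epithelium (SD, n = 4 each). Ly6g, which encodes the antigen of the depleting antibody, stayed at or below 5.08 normalised counts in depleted, 2.41 in irradiated and 0 in sham epithelium. Of 8 neutrophil markers tested, limma called none in epithelium and 2 lower in depleted mesenchyme, Cxcr2 and Csf3r. In epithelium edgeR and DESeq2 each called 1 lower in depleted libraries, Csf3r. In mesenchyme edgeR called Csf3r lower, and DESeq2 called Cxcr2 and Csf3r lower and Ngp higher. The part of these markers in the comparison of depleted and irradiated libraries was not tested.

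Plk2 had 1072, 1026, 1169 and 1019 normalised counts in depleted and 1351, 1378, 1684 and 1101 in irradiated epithelium, against 862, 886, 915 and 821 in sham epithelium. Its depleted minus irradiated change was -0.35 ± 0.095 (limma adjusted p = 0.13; DESeq2 adjusted p = 0.0279). The size of this difference rested on single irradiated libraries. It was -0.25 without irradiated replicate 3 (limma adjusted p = 0.232) and -0.45 without irradiated replicate 4 (adjusted p = 0.0182), the one left-out library of the 12 that gave a call. Ak1 lay lower in depleted than in irradiated epithelium as well, at -0.25 ± 0.081 (adjusted p = 0.188). Plk3 at 0.36 ± 0.12 (adjusted p = 0.209), Sulf2 at 0.30 ± 0.11 (adjusted p = 0.225) and Abhd4 at 0.27 ± 0.078 (adjusted p = 0.144) lay higher in depleted epithelium. Trp53inp1 had the largest epithelial difference, 0.45 ± 0.20 (adjusted p = 0.409), with a mesenchymal one of 0.43 ± 0.21 (adjusted p = 0.306). The largest mesenchymal difference was that of Tigar, 0.62 ± 0.28 (adjusted p = 0.25), a gene whose exons overlap an antisense transcript. None of the 31 genes differed between fractions in this contrast by limma, edgeR or DESeq2, where limma called 0.0994% of all genes higher and 0.497% lower. At an unadjusted p under 0.05 there were 3 of 31, Zmat3, Tigar and Ak1, where 11.3% of all genes passed.

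**Figure D4:**
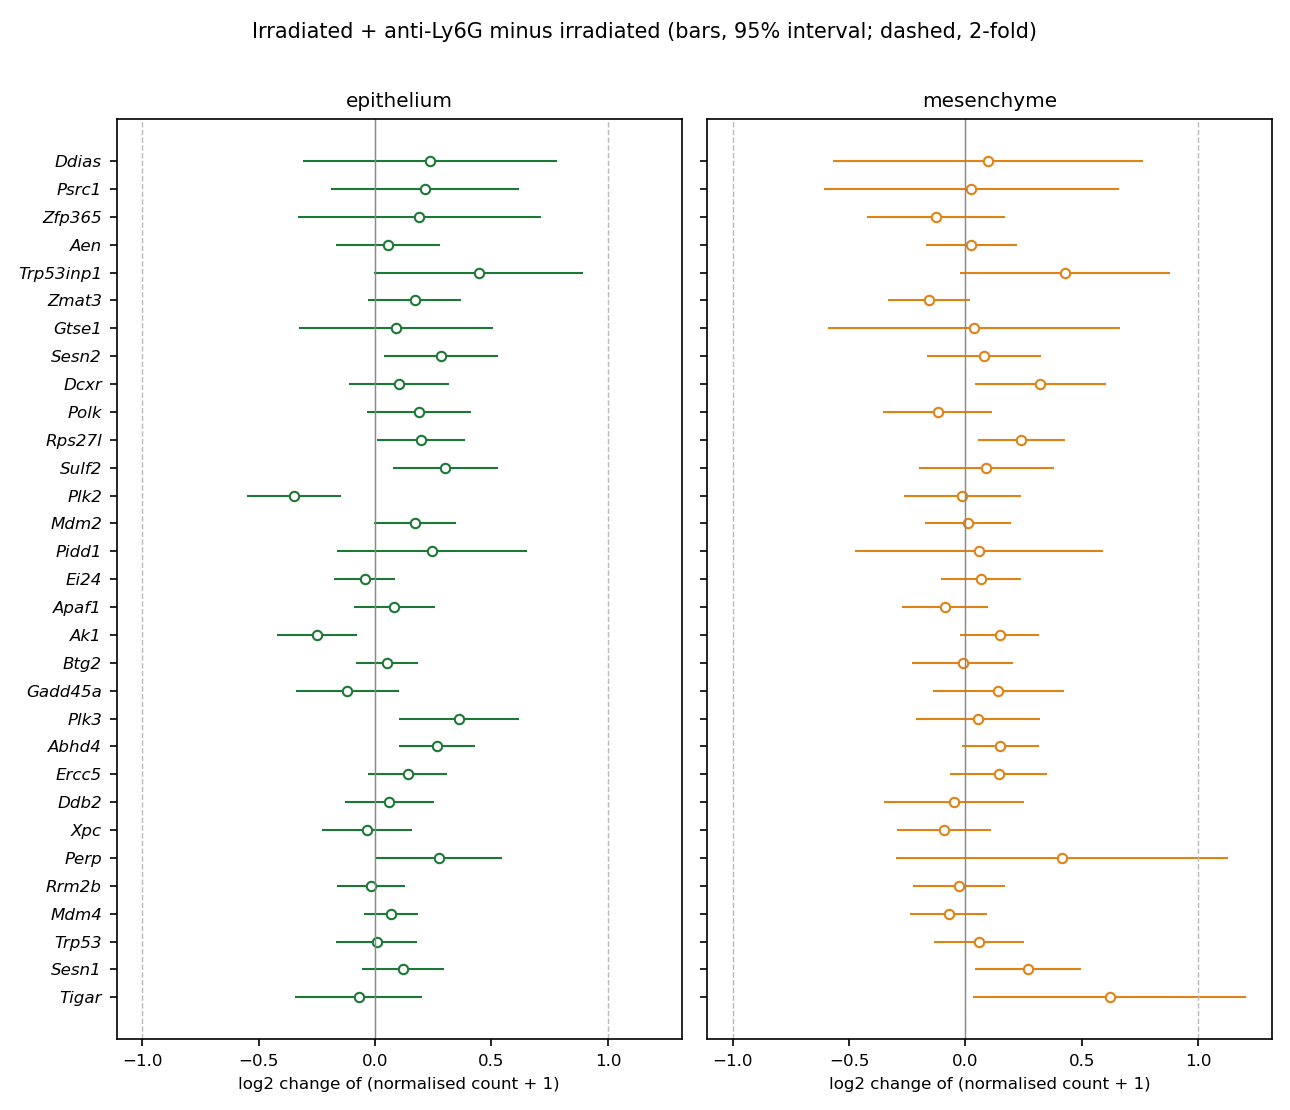
Depleted minus irradiated log2 change of (normalised count + 1) for the 31 tested genes in epithelium (left) and mesenchyme (right), in the order of the epithelial irradiation response, with 95% intervals from limma and dashed lines at a change of 2-fold. Open points mark that no gene passed the test; the points gather near 0, with Plk2 lowest in epithelium and Tigar highest in mesenchyme.

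Depleted libraries were also set against sham, a comparison that shares the sham libraries with the irradiated one. In epithelium 20 of 31 genes were called higher and none lower, where 6.52% of all genes were called higher and 4.76% lower. In mesenchyme 19 of 31 were called higher and none lower, where 8.51% and 6.7% of all genes were. edgeR and DESeq2 also called none lower in either. Cell type markers moved in this comparison as well. In depleted against sham epithelium limma called higher 4 of 10 mesenchymal, 5 of 8 neutrophil, 4 of 12 leukocyte, 1 of 10 endothelial, 1 of 4 erythroid and 1 of 11 epithelial markers, and 2 of 11 epithelial markers lower. In mesenchyme it called higher 5 of 9 epithelial, 5 of 8 neutrophil, 2 of 12 leukocyte, 1 of 10 endothelial and 0 of 5 erythroid markers, and 1 of 10 mesenchymal markers lower. Their part in the changes against sham was not tested. Of the genes with an unadjusted limma p under 0.05, 22 in epithelium and 23 in mesenchyme, all but the mesenchymal Rrm2b were higher, where 24.7% and 29.2% of all genes passed. The depleted libraries lay wholly above sham for 21 genes in epithelium and 18 in mesenchyme, as for 8.76% and 10.3% of all genes, and wholly below for 0 and 1 (Btg2), as for 7.89% and 9.07%. Called in all 4 comparisons with sham were 15 genes, and 8 were called in none: Trp53, Mdm4, Rrm2b, Sesn1, Tigar, Xpc, Ddb2 and Gadd45a. Calls that limma made with the depleted libraries and not with the irradiated ones were Plk3, at 0.65 ± 0.12 (adjusted p = 0.0024), Ercc5, at 0.41 ± 0.081 (adjusted p = 0.00347), Pidd1, at 0.84 ± 0.19 (adjusted p = 0.00891), and Abhd4, at 0.55 ± 0.078 (adjusted p = 0.000206), in epithelium. In mesenchyme they were Perp, at 1.48 ± 0.33 (adjusted p = 0.00853), beside the epithelial marker sums given above, and Abhd4, at 0.24 ± 0.078 (adjusted p = 0.0471). The mesenchymal Abhd4 groups overlapped, and its call was lost with no filter and on leaving out any library other than sham replicate 4, irradiated replicate 1 and depleted replicate 2, with an adjusted p of up to 0.133. Plk2 lay higher in all 4 depleted than in all 4 sham epithelial libraries, at 0.30 ± 0.095, and passed by DESeq2 but not by limma (limma adjusted p = 0.0563; DESeq2 adjusted p = 0.0403). Ak1 was not called there by limma, edgeR or DESeq2, at 0.11 ± 0.081 (limma adjusted p = 0.458). None of these genes was called by limma between depleted and irradiated libraries.

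Other genes of the pathway were read from the same fits. Their lists too were chosen with earlier results of these data known, so the shares are a description. Of 28 further p53 targets, 14 of 27 tested were called higher and none lower in irradiated epithelium, against 2.26% and 0.878% of all genes. In irradiated mesenchyme 16 of 27 were called higher and none lower, against 2.64% and 1.15% of all genes. At an unadjusted p under 0.05 there were 18 and 16, where 14.3% and 21% of all genes passed. edgeR and DESeq2 also called none lower. The largest epithelial changes were those of Phlda3 at 3.62 and Eda2r at 3.03, followed by Cdkn1a, the cell cycle inhibitor p21, at 2.66. In mesenchyme they were Eda2r at 2.24, Cdkn1a at 2.11 and Gdf15 at 1.94. Of 17 regulators of p53, among them the damage kinases Atm, Atr, Chek1 and Chek2, none of 16 tested was called in irradiated epithelium by limma, edgeR or DESeq2. At an unadjusted limma p under 0.05 there were 2, where 14.3% of all genes passed. In mesenchyme 1 of 16 was called, Atr, at -0.35 ± 0.083 (adjusted p = 0.0296), where 1.15% of all genes were called lower. There 1 of 16 had an unadjusted limma p under 0.05, against 21% of all genes. Of 14 family counterparts of the 32 genes, such as Gadd45b, Gadd45g, Rrm1, Rrm2 and Sesn3, limma called none with irradiation in either fraction. At an unadjusted p under 0.05 there were 4 in epithelium and 2 in mesenchyme, where 14.3% and 21% of all genes passed. DESeq2 called Gadd45b higher and Sesn3 lower in epithelium, edgeR called Sesn3 lower there, and neither called any in mesenchyme. In depleted against irradiated mesenchyme limma, edgeR and DESeq2 each called 3 of the 27 further targets higher, Dram1, Fas and Lif, and none lower. Over all genes limma called 2.02% higher there and 0.674% lower. In epithelium limma and edgeR called none of the 27, and DESeq2 called Prkab1 higher. The depletion change of Dram1 was lower in epithelium than in mesenchyme by limma, edgeR and DESeq2, and DESeq2 added Lif.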

How the data were processed

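Per the submitters' processing notes, reads were handled with cutadapt 1.5, STAR 2.2.2a, SAMtools 1.8, RSEM 1.3.0 and DESeq2 on GRCm38. The annotation release and strand setting are not given in the sources used here. The authors deposited 1 table per fraction as a signal in normalised counts, scaled separately, so no level was compared between tables. Each positive value was a whole multiple of 1 step per library within 0.001 (100% of values), which gave read counts. Libraries of a group were checked as copies: all 36 pairs differed beyond counting error (chi-square per degree of freedom 2.33 to 14.6).

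limma 3.58.1 (trend, robust, R 4.3.3) was run on log2(value + 1), the 3 groups of a table in 1 fit, for genes with at least 10 in at least 4 of 12 libraries, with Benjamini-Hochberg adjustment over all genes tested. Fold changes on this scale understate the change of low genes. Symbols, positions and exon lengths came from GENCODE M21 (48349 of 48795 identifiers named). The alternatives were a pseudocount of 8, no filter, TMM, edgeR 4.0.16, DESeq2 1.42.0, a replicate block and leaving out each library.

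The members and lists were chosen with earlier results of these data known. Values in every library are given for Trp53, Mdm2, Mdm4, genes called at a log2 change of at least 1 with irradiation, genes called with depletion and genes that differed between fractions. Those of Plk2, Perp and Ptprv were added after their values were seen.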

Additional observations from a re-analysis of the deposited data

Results flagged for a closer look

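In 14 of 186 groups of 4 libraries, 1 library stood apart from the other 3 by Dixon's criterion, which chance alone flags in about 1 group in 20. In epithelium, depleted replicate 4 stood high for Mdm2 (1127 normalised counts, others 880.9 to 915), Psrc1 (232, others 147 to 159) and Aen (766, others 612 to 633). Depleted replicate 2 stood high for Gadd45a (234, others 179 to 187). Among sham epithelial libraries, replicate 3 stood low for Trp53 (238, others 254 to 257) and replicate 4 high for Pidd1 (21.9, others 17.6 to 18.04).

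In mesenchyme, depleted replicate 4 stood high for Mdm2 (1012, others 863 to 880.3) and Ercc5 (635, others 507 to 524), depleted replicate 1 low for Rps27l (226, others 245 to 246) and depleted replicate 2 low for Zfp365 (104, others 144.5 to 148). Among sham mesenchymal libraries, replicate 4 stood low for Mdm4 (1428, others 1502 to 1512), replicate 2 high for Plk3 (476, others 373 to 384), and replicate 1 high for Rrm2b (312, others 277 to 283) and Ddb2 (124, others 92.3 to 95.2). Without depleted replicate 4, Mdm2, Psrc1 and Aen were called higher in depleted against sham libraries of both fractions, as with it.

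The response to irradiation differed between fractions for Btg2, with an epithelium minus mesenchyme difference of 0.53 on the log2 scale, and for Ak1, with -0.57, both by limma on all 24 libraries.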

How the results depend on the processing

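Of 76 calls on single genes, 70 held under every alternative and with each library left out in turn. The other 6 were those of Abhd4, Ddias, Ei24 and Trp53inp1 in mesenchyme, of Ak1 in epithelium and of the difference between fractions of Btg2, given in the report. No call changed sign. Without single libraries, the genes of the set called higher numbered 17 to 19 in irradiated against sham epithelium, 14 to 18 in mesenchyme (14 without irradiated replicate 2), 20 to 21 and 18 to 20 against sham in depleted epithelium and mesenchyme, and 0 to 1 for the difference between fractions with irradiation. Called lower were 0 to 1 in depleted against irradiated epithelium (Plk2 without irradiated replicate 4) and 1 to 3 for the difference between fractions with irradiation, reaching 2 without mesenchymal sham replicate 1 and 3 without mesenchymal sham replicate 2 or mesenchymal irradiated replicate 3.

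Counts over all genes moved more. They were 522 in irradiated against sham epithelium (816 with DESeq2, 214 to 653 without single libraries), 631 in mesenchyme (1055 with DESeq2, 184 to 1073), 79 in depleted against irradiated epithelium (131 with edgeR, 289 with DESeq2, 36 to 199) and 448 in mesenchyme (785 with DESeq2, 182 to 806). Depleted against sham gave 1876 in epithelium (1187 to 1934) and 2528 in mesenchyme (1571 to 2732). The difference between fractions gave 95 with irradiation (163 with edgeR, 441 with DESeq2, 48 to 334) and 90 with depletion (59 with no filter, 169 with DESeq2, 43 to 152). The lowest counts with irradiation came without irradiated replicate 2 in each fraction. For the difference between fractions with irradiation, edgeR called 2 genes of the set lower, adding Gtse1, and DESeq2 2 higher, adding Plk2. In depleted against irradiated epithelium DESeq2 called 1 lower, Plk2. The cause was not tested.

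The labels do not say what a replicate number marks, so the main fits have no replicate block. Not every same-numbered pair correlated above 0.1, but that cut cannot show whether the libraries were paired. Deviations of same-numbered libraries correlated at -0.078 to 0.182 within a table (6 of 24 pairs above 0.1, 12 best with their own number) and at -0.0367 to 0.255 between tables (7 of 12 above 0.1, 9 best, a hint from the data, not the design). Best means the highest correlation among the 4 libraries of the other group, of which 1 has the same number. With the replicate block, 1048 genes were called in irradiated against sham mesenchyme and 218 for the difference between fractions with irradiation. Of the set the block called 1 lower in depleted against irradiated epithelium (Plk2, adjusted p = 0.0411), added Plk2 in depleted against sham epithelium (adjusted p = 0.0137) and Ercc5 in depleted against sham mesenchyme (adjusted p = 0.0353), and called 2 higher for the difference between fractions (adding Zmat3) and 2 lower (adding Gtse1). Depth limits the mesenchymal values of Gtse1, Ddias and Ptprv most.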
